A study of Homo sapiens with 6 samples.

Results

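The genes described here are those of glycolysis and those that cells switch on when oxygen is short, measured in the human gastric adenocarcinoma line AGS after silencing of CTNNB1, the gene of beta-catenin. They were chosen by name, with earlier results of these data known. Listed were 22 genes of glycolysis and 14 further targets of the hypoxia response. Of these 36, 33 had a transcript cluster paired with exactly 1 gene symbol, out of 18417 genes in all that did. The other 3, the lactate exporter gene SLC16A3, the phosphoglycerate mutase gene PGAM1 and the carbonic anhydrase gene CA9, are not analysed here. AGS cells transfected with CTNNB1 siRNA were compared with AGS cells transfected with a non-targeting control siRNA. RNA was taken 48 hours after transfection in both, and each group held 3 Affymetrix Human Gene 1.0 ST arrays, called biological replicates in the sample titles. Nothing says that the replicates came from separate passages, so the p-values cover only the spread between these arrays, which may be technical. The labels name no hypoxia treatment in either group, so the genes were read in a single line without a named low-oxygen step. Neither the siRNA sequences nor the number of siRNAs per reagent is given in the labels.

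Glycolysis splits glucose into pyruvate in the cytosol. Glucose enters through transporters of the SLC2A family, hexokinases trap it, phosphofructokinase commits it, aldolase cleaves it, and the lower enzymes carry the products to pyruvate, which lactate dehydrogenase turns into lactate. Many of these genes are also targets of hypoxia-inducible factor (HIF), a pair of an oxygen-labile alpha subunit (HIF1A or EPAS1) and ARNT. Prolyl hydroxylases of the EGLN family mark the alpha subunit for destruction through VHL when oxygen is present. Tumour cells often run glycolysis at a high rate with oxygen at hand.

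Values are log2 expression after RMA, so 1 unit is a 2-fold difference, and each cluster's own probes set its level, so levels of different genes were not ranked. Differences are CTNNB1 siRNA minus control siRNA. CTNNB1 itself was at 10.27, 10.78 and 10.58 on CTNNB1 siRNA replicates 1 to 3, against 11.92, 11.76 and 11.75 on control siRNA replicates 1 to 3, which left 41.5% of the control level (adjusted p = 0.232 in limma). CTNNB1 siRNA replicate 1 was unlike the other arrays, with Pearson correlations across clusters of 0.963 to 0.967 against 0.984 to 0.993 among the rest, so a member's difference is also given without it where that moved it by over 1.5 times. All 6 epithelial markers were measured, and all 6 differences were positive, with a median of 0.41. The keratin genes KRT19 (0.96, and 0.54 without CTNNB1 siRNA replicate 1) and KRT7 (0.33) separated the groups, KRT8 differed by 0.51 and KRT18 by 0.49 (0.22 and 0.25 without that array), and EPCAM and CDH1 differed by 0.13 and 0.016 (0.061 and 0.25 without it). The leukocyte marker PTPRC lay between 2.60 and 2.79 on the 6 arrays. Of the non-epithelial markers, 3 of 3 leukocyte, 3 of 4 fibroblast and 3 of 3 endothelial ones were among the dimmest 40% of clusters. COL1A1, PECAM1 and CD3E were nonetheless higher in all CTNNB1 siRNA samples than in any control (log2 differences of 0.36, 0.39 and 0.064), VWF was lower on every one (-0.16), and the part of all these markers in the results below was not tested.

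None of the 33 measured members passed limma at an adjusted p of 0.05 over all 19460 clusters tested, where 1 cluster, or 0.00514%, did. These are bulk RNA values, so less RNA per cell and fewer cells that express a gene cannot be told apart. The smallest adjusted p among members was 0.546, that of ANKRD37. At an unadjusted p under 0.05, 6 members were higher after CTNNB1 siRNA and 0 were lower, where 3.07% of all genes were higher and 2.61% lower at that level. Seen by sign, 25 members had a positive difference and 8 a negative one, against 49.1% positive and 50.9% negative among all genes. For 7 members, or 21.2%, every CTNNB1 siRNA array lay above every control array, where 6.86% of all genes did so; for 0 members did every array lie below, against 6.89% of all genes. These 7 were SLC2A3, HK2 and ALDOC of glycolysis and NDRG1, ANKRD37, P4HA2 and ADM of the hypoxia list. The members were chosen with earlier results known, and the count of separated genes was added after the data were seen. The shares set beside those of all genes are therefore descriptions and not tests. Leaving out an array cannot bring separated groups together, so such counts can only stay or grow: without CTNNB1 siRNA replicate 1 BNIP3L was added, which made 8 of 33, or 24.2%, against 13.4% of all genes. Complete separation of 3 arrays from 3 has a 2-sided exact permutation p of 0.1, the smallest this design can give.

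HIF binds a short core, ACGTG or GCGTG, in its target genes. Promoters from the RefSeq promoter table (GRCh38.p14) are shown for 5 of the 7 separated genes, and for LDHA and PGK1, textbook HIF targets whose groups overlapped here. Each run is the 250 bases before the annotated start, 5′ to 3′ along the gene, with every ACGTG or GCGTG on either strand (CACGT or CACGC when read on the other) in capitals.
ANKRD37 (chr4:185396591-185396840, plus strand): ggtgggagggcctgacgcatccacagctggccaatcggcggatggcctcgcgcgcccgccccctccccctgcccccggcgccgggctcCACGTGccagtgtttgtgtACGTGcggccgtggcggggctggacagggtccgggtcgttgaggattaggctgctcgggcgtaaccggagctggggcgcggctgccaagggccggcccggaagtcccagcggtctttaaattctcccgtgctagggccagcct
ALDOC (chr17:28576896-28577145, minus strand): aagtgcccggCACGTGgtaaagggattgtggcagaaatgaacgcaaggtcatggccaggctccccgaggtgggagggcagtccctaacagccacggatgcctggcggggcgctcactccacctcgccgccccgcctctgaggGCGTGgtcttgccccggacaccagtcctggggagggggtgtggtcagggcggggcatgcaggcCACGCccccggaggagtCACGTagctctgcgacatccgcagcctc
HK2 (chr2:74833877-74834126, plus strand): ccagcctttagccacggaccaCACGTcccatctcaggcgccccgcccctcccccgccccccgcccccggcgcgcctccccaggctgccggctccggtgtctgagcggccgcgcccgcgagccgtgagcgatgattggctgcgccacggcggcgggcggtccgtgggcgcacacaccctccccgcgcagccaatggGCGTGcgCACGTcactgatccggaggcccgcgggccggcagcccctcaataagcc
ADM (chr11:10304823-10305072, plus strand): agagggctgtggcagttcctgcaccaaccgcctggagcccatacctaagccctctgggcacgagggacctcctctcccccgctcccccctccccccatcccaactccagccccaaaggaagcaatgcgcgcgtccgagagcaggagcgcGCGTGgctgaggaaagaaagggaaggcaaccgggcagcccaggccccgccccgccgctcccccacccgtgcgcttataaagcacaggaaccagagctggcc
P4HA2 (chr5:132227092-132227341, minus strand): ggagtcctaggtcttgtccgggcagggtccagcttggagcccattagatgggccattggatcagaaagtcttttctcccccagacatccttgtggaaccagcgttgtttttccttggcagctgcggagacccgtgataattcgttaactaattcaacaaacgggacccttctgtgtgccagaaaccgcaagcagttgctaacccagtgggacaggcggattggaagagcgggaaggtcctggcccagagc
LDHA (chr11:18394313-18394562, plus strand): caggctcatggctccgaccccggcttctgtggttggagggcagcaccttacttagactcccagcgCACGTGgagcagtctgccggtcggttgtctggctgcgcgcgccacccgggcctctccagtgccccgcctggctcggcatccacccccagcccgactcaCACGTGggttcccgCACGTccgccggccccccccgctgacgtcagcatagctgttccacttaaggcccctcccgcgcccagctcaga
PGK1 (chrX:78103998-78104247, plus strand): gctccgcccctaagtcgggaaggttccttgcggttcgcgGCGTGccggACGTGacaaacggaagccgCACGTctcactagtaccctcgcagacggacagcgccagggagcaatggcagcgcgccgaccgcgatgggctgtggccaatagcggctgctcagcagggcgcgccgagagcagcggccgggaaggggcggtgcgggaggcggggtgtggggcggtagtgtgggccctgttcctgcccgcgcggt
ANKRD37 held 2 runs of capitals, which began 162 and 143 bases before the start. ALDOC held 4, beginning between 240 and 28 bases before the start, and HK2 held 3, between 229 and 48 bases before it. ADM held 1, a GCGTG that began 101 bases before the start, and P4HA2 held 0 in this window. LDHA and PGK1, whose groups overlapped, held 3 each. The overlap of PGK1 was narrow, with CTNNB1 siRNA replicates 1 and 3 at 11.269 and 11.275 and control siRNA replicate 2 at 11.275. The longer run CACGTG, seen in ANKRD37, ALDOC and LDHA, is also the E-box read by MYC and USF factors and holds ACGTG on both strands. The first listed promoter stood for a gene, and 7811 others with a repeated symbol were left out, so other starts were not counted. Of the members, 29 had a promoter in the table (SLC2A3, NDRG1, BNIP3L and VEGFA apart). ACGTG stood in 8 of 19 glycolysis promoters and 5 of 10 of the hypoxia list, against 18.7% of all 27305 promoters kept. Either core stood in 12 of 19 and 8 of 10, against 43.1% of all. Many members were listed as known targets of the hypoxia response, so a higher share can follow from that choice alone. CTTTGAT, a motif of the TCF/LEF factors through which beta-catenin acts, was in 0 of 19 and 0 of 10, against 2.28% of all promoters searched on both strands. At so low a share, this few promoters would often hold 0, so the count cannot set the members apart from other genes. These matches describe letters in the window and not bound sites.

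Among the hypoxia-inducible genes, NDRG1 and ANKRD37 had the largest differences and separated the groups by the widest margins. NDRG1, a stress-responsive gene linked to differentiation of epithelial cells and widely used as a hypoxia marker, was at 9.62, 10.22 and 9.73 on CTNNB1 siRNA replicates 1 to 3, against 9.06, 9.14 and 8.41 on control siRNA replicates 1 to 3. Every CTNNB1 siRNA array was higher than every control array, with control siRNA replicate 3 the lowest by a wide margin. The means were 9.86 ± 0.32 after CTNNB1 siRNA and 8.87 ± 0.40 in controls (SD, n = 3 each), a 1.98-fold difference (log2 0.99, SE 0.24; limma adjusted p = 0.816). It stayed between 0.76 and 1.12 when any 1 array was left out.

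ANKRD37, a small ankyrin-repeat gene known as a direct HIF target, was at 7.77, 7.89 and 7.65 on CTNNB1 siRNA replicates 1 to 3, against 6.63, 6.93 and 7.01 on control siRNA replicates 1 to 3. The 3 CTNNB1 siRNA arrays sat close together and well clear of the controls. Means of 7.77 ± 0.12 after CTNNB1 siRNA and 6.86 ± 0.20 in controls (SD, n = 3 each) gave a 1.88-fold difference (log2 0.91, SE 0.16), with an unadjusted p of 0.000393 and an adjusted p of 0.546 in limma. The difference was 0.91 without CTNNB1 siRNA replicate 1 and ran from 0.80 to 0.99 over all fits that left out 1 array.

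The collagen prolyl 4-hydroxylase genes, whose alpha subunits modify collagen in the endoplasmic reticulum, came next. P4HA1 was at 9.09, 8.47 and 8.03 on CTNNB1 siRNA replicates 1 to 3, against 8.08, 7.93 and 7.62 on control siRNA replicates 1 to 3. Its groups overlapped narrowly, since CTNNB1 siRNA replicate 3 lay just under control siRNA replicate 1. P4HA2 was at 9.24, 8.84 and 8.68 on CTNNB1 siRNA replicates 1 to 3, against 8.41, 8.51 and 8.50 on control siRNA replicates 1 to 3, with no overlap. The log2 differences were 0.65 (SE 0.27) for P4HA1 and 0.45 (SE 0.17) for P4HA2, each with a limma adjusted p of 0.816. Both were highest on the array that stood apart, and without it they were 0.37 and 0.29. ERO1A, the oxidase that forms disulphide bonds in the same compartment, differed by 0.086 (95% confidence interval -0.32 to 0.49).

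ADM, the gene of the vasodilator peptide adrenomedullin, was at 6.46, 6.46 and 6.41 on CTNNB1 siRNA replicates 1 to 3, against 6.22, 6.00 and 6.28 on control siRNA replicates 1 to 3. The separation was complete but small, a log2 difference of 0.27 (SE 0.14). VEGFA, the vascular growth factor gene, was at 8.74, 9.03 and 8.95 on CTNNB1 siRNA replicates 1 to 3, against 7.99, 9.06 and 9.32 on control siRNA replicates 1 to 3. Its controls spread more widely than its silenced arrays, and the difference was 0.12 over all arrays, 0.20 without CTNNB1 siRNA replicate 1, -0.28 without control siRNA replicate 1 and 0.38 without control siRNA replicate 3.

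The remaining hypoxia targets showed no common shift. BNIP3L, a mitophagy receptor gene, was at 8.77, 10.45 and 10.08 on CTNNB1 siRNA replicates 1 to 3, against 9.64, 9.86 and 9.83 on control siRNA replicates 1 to 3. The array that stood apart was the lowest of all 6 and the other CTNNB1 siRNA arrays were the highest, so its log2 difference was -0.011 with that array and 0.49 without it. EGLN1 and EGLN3, the oxygen sensors that HIF itself induces, differed by -0.14 (95% confidence interval -0.52 to 0.24) and 0.074 (-0.42 to 0.57), and by -0.027 and 0.23 without the array that stood apart. KDM3A, a histone demethylase gene, had the lowest difference of the list at -0.22 (SE 0.19). BNIP3, the other mitophagy receptor gene, and CA12, a carbonic anhydrase gene, differed by -0.039 (-0.12 without that array) and 0.089, and both clusters were among the dimmest 40%, where RMA compresses differences.

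**Figure D1:**
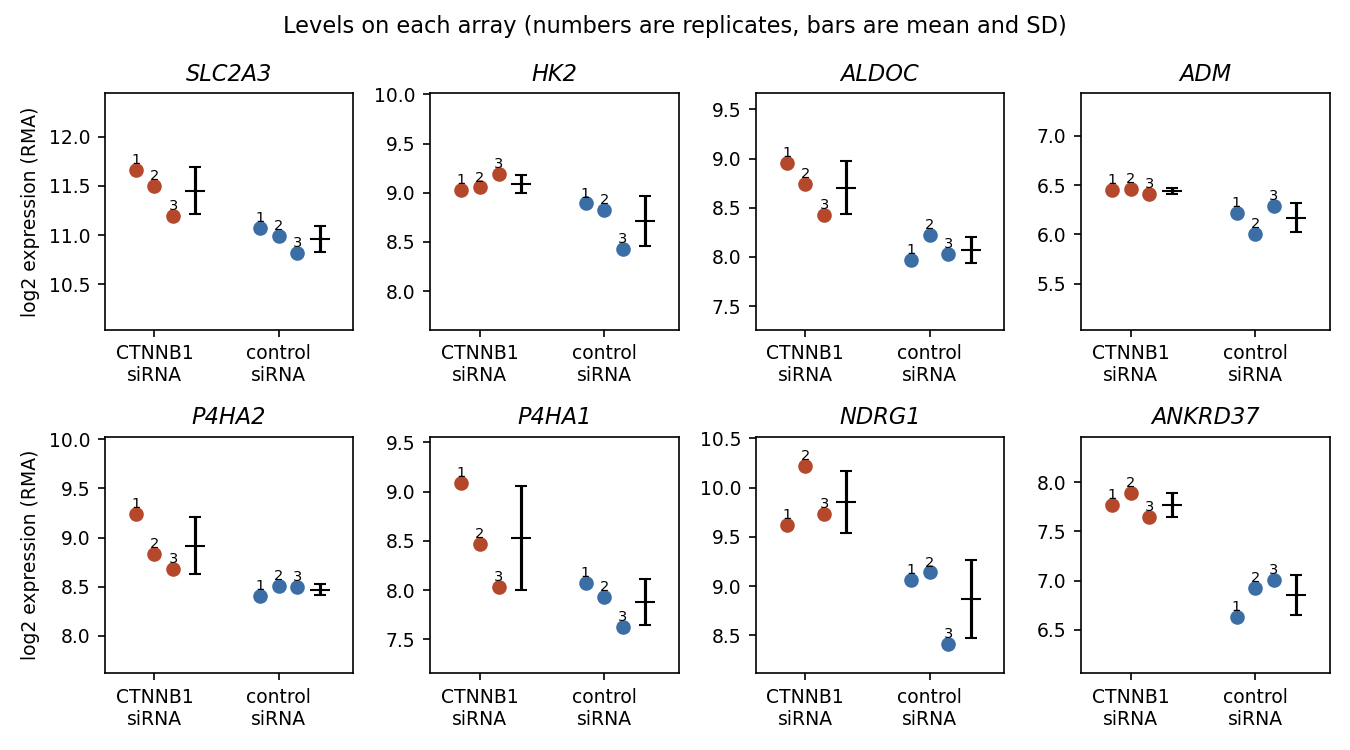
Log2 expression (RMA) of 8 members on each array, with CTNNB1 siRNA arrays in red on the left and control siRNA arrays in blue on the right of each panel; numbers are replicates and bars are the mean and SD of 3 arrays. All panels span the same log2 range, and P4HA1 is the 1 gene shown whose groups overlap.

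Among the glycolysis genes, the clearest separations were in a glucose transporter, an aldolase and a hexokinase. SLC2A3, which encodes the high-affinity glucose transporter GLUT3, was at 11.66, 11.50 and 11.19 on CTNNB1 siRNA replicates 1 to 3, against 11.07, 10.99 and 10.82 on control siRNA replicates 1 to 3. It averaged 11.45 ± 0.24 after CTNNB1 siRNA and 10.96 ± 0.13 in controls (SD, n = 3 each), a 1.40-fold difference (log2 0.49, SE 0.17; limma adjusted p = 0.816). SLC2A1, the gene of the more widely expressed transporter GLUT1, lay between 12.61 and 12.78 after CTNNB1 siRNA and between 12.50 and 12.75 in controls. Its log2 difference was 0.028, with a 95% confidence interval of -0.30 to 0.35.

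ALDOC, the aldolase isoform best known from brain, had the largest difference of the list. It was at 8.95, 8.74 and 8.42 on CTNNB1 siRNA replicates 1 to 3, against 7.97, 8.22 and 8.03 on control siRNA replicates 1 to 3, a 1.55-fold difference (log2 0.63, SE 0.17; limma adjusted p = 0.816). Without CTNNB1 siRNA replicate 1 it was 0.51. ALDOA, the major aldolase isoform of most tissues, differed by 0.079 (95% confidence interval -0.24 to 0.40).

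HK2, the hexokinase isoform that is typically induced in tumours, was at 9.02, 9.05 and 9.19 on CTNNB1 siRNA replicates 1 to 3, against 8.89, 8.82 and 8.43 on control siRNA replicates 1 to 3. The gap between the groups was narrow, and control siRNA replicate 3 was the lowest. Its log2 difference was 0.38 (SE 0.16), and 0.23 without control siRNA replicate 3. HK1, the housekeeping isoform, was at 6.92, 6.41 and 6.38 on CTNNB1 siRNA replicates 1 to 3, against 5.89, 6.53 and 6.12 on control siRNA replicates 1 to 3. Its groups overlapped, and its difference of 0.39 (SE 0.22) was 0.21 without CTNNB1 siRNA replicate 1.

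The values of the phosphofructokinase genes rested mostly on a single array. PFKL, the liver isoform, was at 8.85, 7.74 and 7.85 on CTNNB1 siRNA replicates 1 to 3, against 7.82, 7.98 and 7.82 on control siRNA replicates 1 to 3. Only CTNNB1 siRNA replicate 1 stood above the controls, and the log2 difference of 0.27 was -0.078 without it. PFKM, the muscle isoform, differed by 0.23 and by 0.013 without that array. For PFKP, the platelet isoform, the corresponding values were 0.097 and 0.0018. PFKFB3 and PFKFB4, which make the fructose bisphosphate that activates phosphofructokinase, differed by 0.27 (SE 0.21) and 0.19 (SE 0.29), with control arrays spread from 7.07 to 7.83 and from 5.52 to 6.58. PFKFB4 was at 0.053 without CTNNB1 siRNA replicate 1.

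For the remaining enzymes every 95% confidence interval included 0, as it did for all glycolysis genes above except SLC2A3 and ALDOC. GAPDH, often used as a reference gene, was at 13.28, 13.49 and 13.43 on CTNNB1 siRNA replicates 1 to 3, against 13.50, 13.45 and 13.45 on control siRNA replicates 1 to 3. It had the lowest difference of the glycolysis list at -0.062 (95% confidence interval -0.37 to 0.24), and -0.0023 without CTNNB1 siRNA replicate 1. LDHA, which makes lactate, differed by -0.047 (-0.35 to 0.26), and by -0.023 without that array. PGK1, a kinase that yields ATP, differed by 0.23 (-0.14 to 0.60), ENO1, the main enolase, by 0.20 (-0.29 to 0.69), and PKM, pyruvate kinase, by 0.14 (-0.21 to 0.48). Without CTNNB1 siRNA replicate 1, ENO1 was at -0.020 and PKM at 0.020. The enolase gene ENO2, known from neurons, differed by 0.25 (SE 0.16; 0.15 without that array) and was among the dimmest 40% of clusters. GPI, glucose phosphate isomerase, differed by 0.12, and by -0.012 without that array. TPI1, triose phosphate isomerase, had 2 clusters that differed by -0.026 and 0.031, and the first of these was 0.017 without that array, so its sign was unsettled. PDK1, a kinase that inhibits the pyruvate dehydrogenase complex and a classical HIF target, differed by -0.0078 (-0.36 to 0.35), and by 0.086 without that array. Several of these enzymes have near-identical processed pseudogenes, and signal from such copies cannot be told apart by these values.

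**Figure D2:**
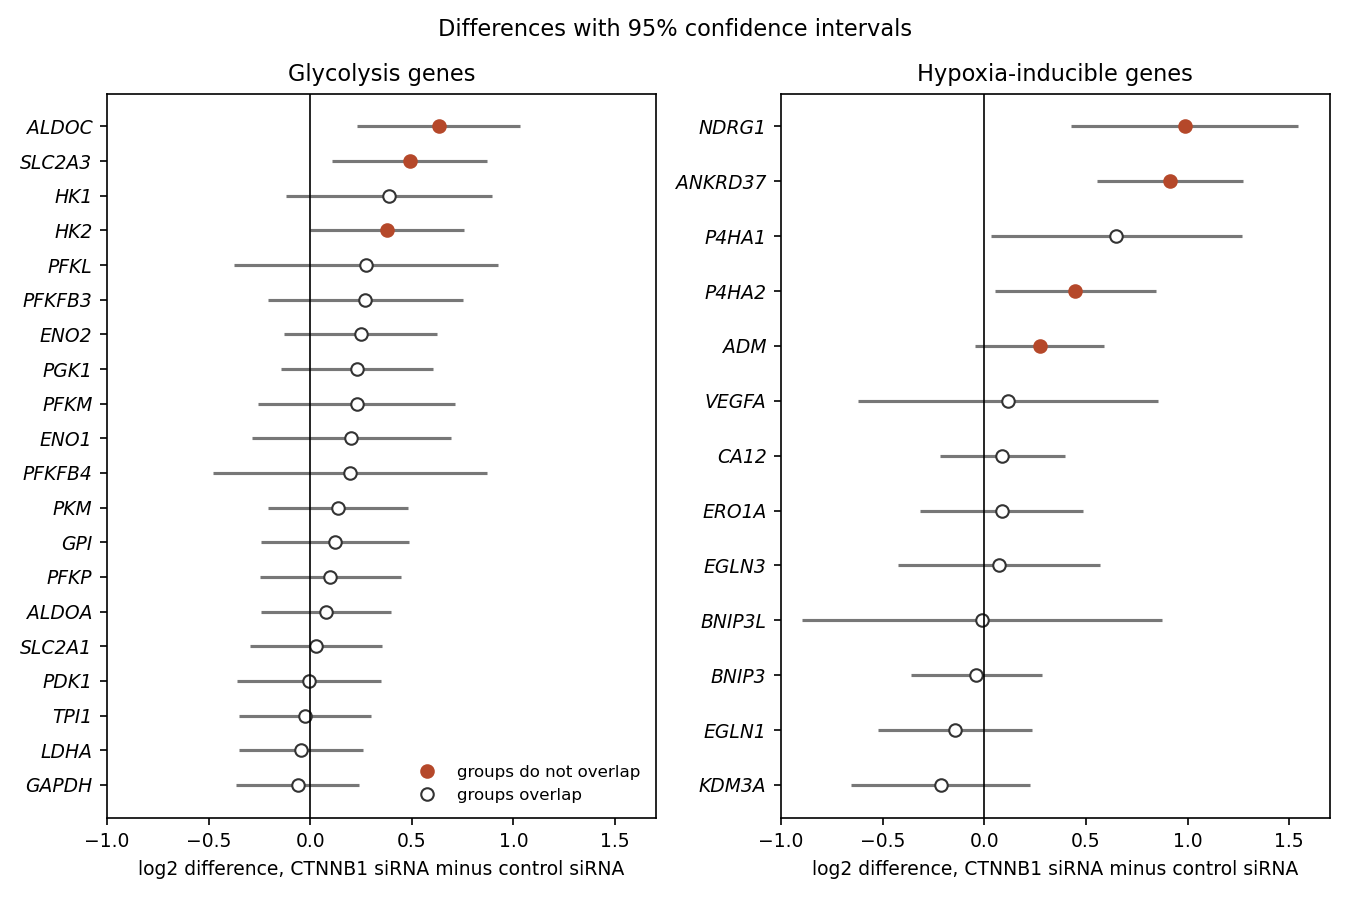
Log2 difference, CTNNB1 siRNA minus control siRNA, of each of the 20 glycolysis genes and 13 hypoxia-inducible genes, with 95% confidence intervals from limma; filled points mark genes whose groups do not overlap. The 3 filled genes on the left and 4 on the right are all positive, and the intervals of GAPDH, LDHA, SLC2A1 and PDK1 lie around 0.

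By list, 16 of 20 measured glycolysis genes had a positive difference and 4 a negative one, with a median of 0.20, beside -0.0052 over all genes. The hypoxia list had 9 positive and 4 negative of 13, with a median of 0.089. The glycolysis median was 0.038 without CTNNB1 siRNA replicate 1, 0.12 without control siRNA replicate 2 and 0.12 without control siRNA replicate 3. The hypoxia median was 0.23 without CTNNB1 siRNA replicate 1, 0.054 without CTNNB1 siRNA replicate 2 and 0.19 without control siRNA replicate 2. Leaving out the array that stood apart thus lowered the glycolysis median and raised the hypoxia median.

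The arrays differed within the groups as well as between them. The median level of the glycolysis genes, relative to the control mean of each gene, was 0.38, 0.069 and 0.022 on CTNNB1 siRNA replicates 1 to 3, against 0.091, 0.019 and -0.059 on control siRNA replicates 1 to 3. CTNNB1 siRNA replicate 1 was far above the rest, and replicates 2 and 3 lay within the range of the controls. For the hypoxia list the medians were 0.085, 0.29 and 0.15 on CTNNB1 siRNA replicates 1 to 3, against 0.060, 0.086 and -0.065 on control siRNA replicates 1 to 3. Here CTNNB1 siRNA replicate 2 was the highest. It was the highest array of its group for 10 of 13 hypoxia genes, against 28.9% of all genes, while CTNNB1 siRNA replicate 1 was the highest of its group for 12 of 20 glycolysis genes, against 35.0% of all genes. Among controls, replicate 1 was the highest for 12 of 20 glycolysis genes, against 33.8% of all genes.

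**Figure D3:**
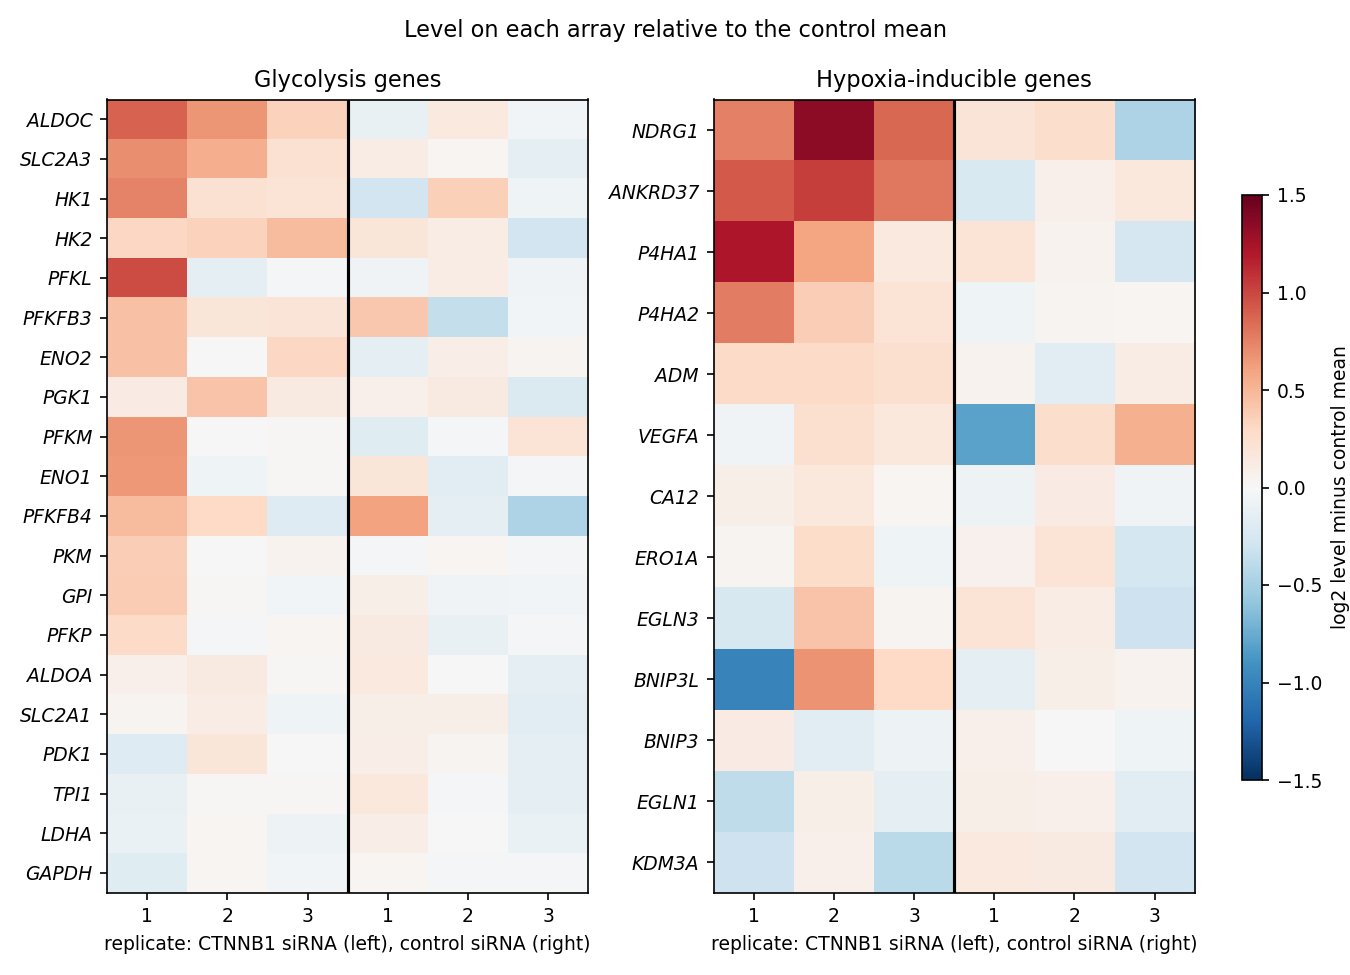
Log2 level of each member on each array minus the mean of the 3 control arrays for that gene, with CTNNB1 siRNA replicates left of the black line and control siRNA replicates right of it. NDRG1 and ANKRD37 are red on all 3 CTNNB1 siRNA arrays, PFKL, PFKM and ENO1 are red mainly on CTNNB1 siRNA replicate 1, and BNIP3L is blue on that array and red on the other CTNNB1 siRNA arrays.

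Other genes of the same pathways were read from 3 further lists, and 0 of their 59 measured genes passed limma over all clusters in either direction, while 4 were higher and 0 lower at an unadjusted p under 0.05. Of 19 measured genes in the list of other hypoxia-inducible genes, 16 had a positive difference and 3 a negative one, with a median of 0.15, and 0.17 without CTNNB1 siRNA replicate 1. Groups did not overlap for 6 of them, or 31.6%, all with CTNNB1 siRNA higher, beside 6.86% of all genes. The 3 further lists were also chosen with earlier results known, so their shares are descriptions too. BHLHE40, a circadian and stress-response repressor gene, was at 9.72, 10.01 and 9.80 on CTNNB1 siRNA replicates 1 to 3, against 8.88, 9.43 and 9.24 on control siRNA replicates 1 to 3. This is a log2 difference of 0.66 (SE 0.18). INSIG2, a sterol-sensing regulator gene, differed by 0.85, and by 0.32 without CTNNB1 siRNA replicate 1, where it was highest. ANGPTL4, a secreted inhibitor of lipoprotein lipase, differed by 0.57 (SE 0.25), and by 0.28 without CTNNB1 siRNA replicate 2; its control mean of 5.19 was in the range of the dimmest 40%, so its size is uncertain. FAM162A, a mitochondrial protein gene, differed by 0.46 (0.30 without CTNNB1 siRNA replicate 1). RAB20, a small GTPase gene, and TMEM45A each differed by 0.26, and TMEM45A was among the dimmest 40%.

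The list of other glucose metabolism genes was nearly evenly divided, with 16 positive and 14 negative of 30 and a median of 0.045, and without CTNNB1 siRNA replicate 1 it had 12 positive of 30 and a median of -0.037. HKDC1, a hexokinase family gene, stood out in it. It was at 6.99, 5.98 and 6.34 on CTNNB1 siRNA replicates 1 to 3, against 4.57, 5.50 and 5.09 on control siRNA replicates 1 to 3. All CTNNB1 siRNA arrays were above all controls, with a log2 difference of 1.38 (SE 0.31; unadjusted p = 0.0021 and adjusted p = 0.816 in limma), and 1.11 without CTNNB1 siRNA replicate 1. Its control mean of 5.05 lay below 5.36, the mean under which a cluster counted among the dimmest 40%, so the size of this difference is uncertain. ENO3, the muscle enolase, differed by 0.39 (SE 0.15) with no overlap and was among the dimmest 40%. With HKDC1 it made 2 of 30 genes, or 6.67%, separated with CTNNB1 siRNA higher, near the 6.86% of all genes. In the list 1 gene was separated with CTNNB1 siRNA lower, beside 6.89% of all genes. DLAT, a pyruvate dehydrogenase subunit gene, was lower on every CTNNB1 siRNA array by a small amount (-0.086, SE 0.12). PDHA1, another subunit gene, differed by 0.39 and PDK3, a kinase that inhibits this complex, by -0.39, and without CTNNB1 siRNA replicate 1 these were 0.026 and -0.033.

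Genes of oxygen sensing itself were split, with 5 positive and 5 negative of 10 and a median of -0.019. Groups did not overlap for 0 of them, where 6.86% of all genes were separated with CTNNB1 siRNA higher and 6.89% lower. Without CTNNB1 siRNA replicate 1 the median was -0.025, and EPAS1 and CITED2 were higher on both remaining arrays than in any control. These were 2 of 10, or 20%, against 13.4% of all genes. CITED2 differed by 0.17, and by 0.48 without that array. HIF1A, the best-known alpha subunit gene, was at 10.81, 11.26 and 11.01 on CTNNB1 siRNA replicates 1 to 3, against 10.68, 11.02 and 10.93 on control siRNA replicates 1 to 3. The groups overlapped, with a difference of 0.15 (95% confidence interval -0.24 to 0.54), and 0.26 without CTNNB1 siRNA replicate 1. EPAS1, the gene of the other main alpha subunit, differed by 0.30 (-0.096 to 0.69), ARNT by -0.18 (-0.71 to 0.34; 0.044 without that array) and VHL by -0.18 (-0.59 to 0.22). CREBBP and EP300, coactivators of HIF and of beta-catenin, differed by -0.70 (SE 0.34) and -0.42 (SE 0.26). Both were lowest on CTNNB1 siRNA replicate 1, without which the differences were -0.28 and -0.13. HIF is controlled mainly through the stability of its protein, which these arrays did not measure.

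**Figure D4:**
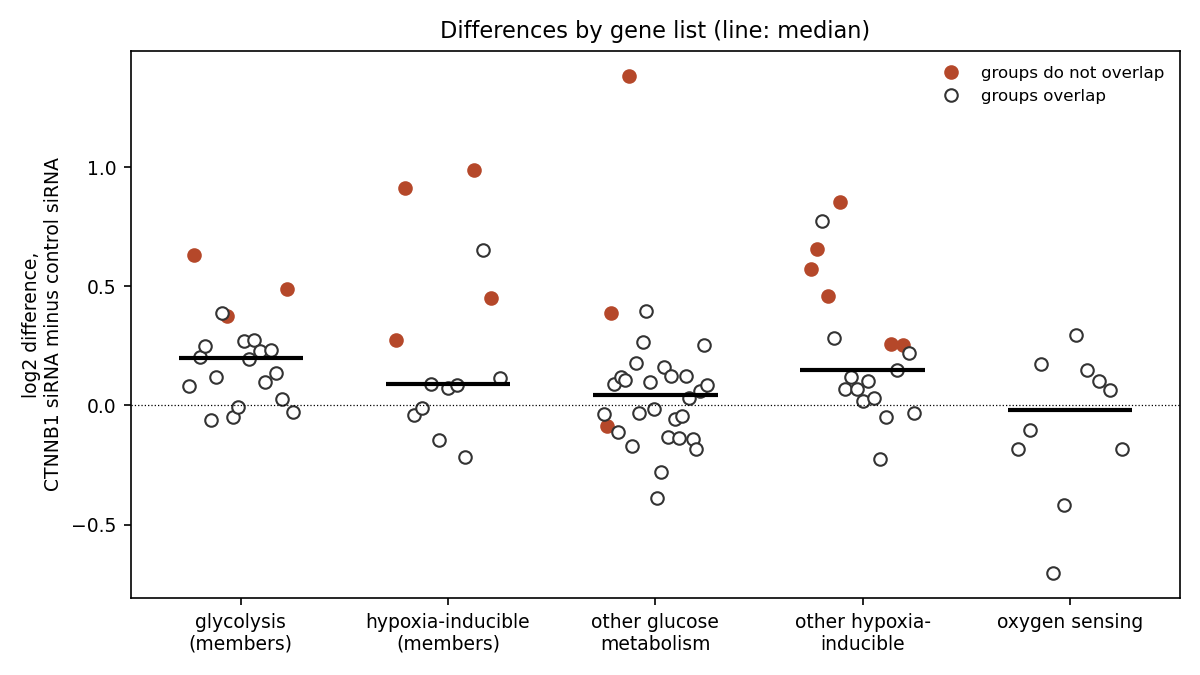
Log2 difference, CTNNB1 siRNA minus control siRNA, of each measured gene in the 2 member lists and in 3 further lists of the same pathways; filled points mark genes whose groups do not overlap, and lines are list medians. The medians are 0.20, 0.089, 0.045, 0.15 and -0.019 from left to right, and HKDC1 is the highest point.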

How the data were processed

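The authors summarised probes per transcript cluster as log2 expression. The submitters' processing notes name RMA and Affymetrix Expression Console 1.1; the log2 scale of the deposited table was read from its range, and no genome build or annotation was given in the sources used here. RMA equalises the distribution of the arrays, so a shift of the whole transcriptome cannot be seen. Per the labels' protocols, 500 ng of Trizol-extracted total RNA per sample was labelled.

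Of 33297 clusters, 19460 had exactly 1 gene symbol in the platform annotation (updated through RefSeq gene identifiers) and were tested, 1754 had several and 12083 had none. The highest-mean cluster stood for a gene. Groups were compared with limma 3.58.1 (lmFit, eBayes) in R 4.3.3, 2-sided, with p-values adjusted by Benjamini-Hochberg over these clusters, a threshold of 0.05, no covariates and no filter. The procedure was tested on simulated data. The members and lists were chosen with earlier results of these data known. Values on every array are given for GAPDH, for members whose groups do not overlap, and for the 4 largest differences of each list; from the wider lists, genes without overlap, the 4 smallest p and HIF1A, EPAS1, ARNT and VHL are named. Array values of VEGFA, BNIP3L, PFKL and of genes named beyond this rule were chosen after their values were seen. Precision is limited by the number of arrays. Alternatives were median centring, leaving out the dimmest 40% of clusters, array weights, a trended robust prior, a replicate block, averaged clusters and each array left out in turn.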

Additional observations from a re-analysis of the deposited data

How the results depend on the processing

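No member passed the threshold under any alternative run, and the smallest adjusted p of a member was 0.0771 (ANKRD37, array weights); leaving out the dimmest 40% left 30 of the 33 members to test. Clusters past the threshold, 1 of 19460 as reported, numbered 0 with the dimmest 40% left out (670 at an unadjusted p under 0.05), 13 with array weights, 0 with the replicate block (1123 at an unadjusted p under 0.05) and 0 to 10 with 1 array left out. CTNNB1 passed with array weights (log2 difference -1.12, adjusted p = 0.0219). Array weights gave CTNNB1 siRNA replicate 1 a weight of 0.226, moved the glycolysis median to 0.093 and the hypoxia median to 0.25, and turned the sign of 7 member differences, the largest being the 0.27 of PFKL. With 1 array left out, the glycolysis median ran from 0.038 to 0.25 and the hypoxia median from 0.054 to 0.23, and 0 to 6 members turned sign. The members whose groups did not overlap, a count added after the data were seen, numbered 3 to 6 in the glycolysis list and 4 to 5 in the hypoxia list. Leaving out an array cannot lower these counts, so they say nothing about stability. The share of all genes with CTNNB1 siRNA higher grew as well, from 6.86% to 13.4% without CTNNB1 siRNA replicate 1. It was not computed for the other arrays left out. Median centring turned 0 signs; the dim filter, the trended prior and the replicate block cannot alter a fitted difference in this balanced design, so their equal signs say nothing about stability. Averaging clusters turned the sign of TPI1. Replicate numbers are shared between the groups in the labels. Deviations of same-numbered arrays correlated at 0.092, 0.12 and 0.098, each array correlating best with its own number, too weakly to pair the samples; with the replicate block 0 members passed (smallest adjusted p = 0.743). The causes of these shifts were not tested.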
